A study of Mus musculus with 36 samples.

Results

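Matrix metalloproteases and the tissue inhibitors that hold them in check were followed as a family of 10 genes in mouse visceral fat and liver. The members, *Mmp2*, *Mmp3*, *Mmp9*, *Mmp13*, *Mmp14*, *Mmp19* and *Timp1* to *Timp4*, were taken by gene symbol from the 56748 genes of the expression table, and each symbol matched 1 row. RNA was sequenced from epididymal white adipose tissue, called visWAT here, and from liver of the same 18 male C57BL/6J mice, which gives 36 libraries and 8 groups of tissue, genotype and diet. Mlkl Adi-KO mice carried loxP-flanked *Mlkl* alleles and the Adipo-Cre transgene, and their WT littermates carried the loxP-flanked alleles without Cre. The mice were 16 weeks old when they went onto normal chow (NCD) or a high-fat diet (HFD), which they received for 16 weeks. Each NCD group held 4 mice and each HFD group 5. Each library came from 1 mouse, without pooling. The Cre acts in mature adipocytes, so that *Mlkl* is intact in the other cells of fat and in liver.

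Matrix metalloproteases are zinc-dependent endopeptidases that are made as inactive proenzymes and cut collagens, laminins and other proteins of the extracellular matrix once a propeptide has been removed. MMP14 sits in the cell membrane and activates proMMP2 at the cell surface, in a complex in which TIMP2 bridges the enzyme and its substrate. The 4 TIMPs bind the active site of metalloproteases, and in growing fat depots the balance of proteases and inhibitors takes part in the remodelling of the matrix around enlarging adipocytes.

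Levels are given as FPKM, the fragments of a gene divided by its length and by the size of the library, so that genes of different length can be set beside each other. Between 20875463 and 30322171 reads fell on genes in each library. Adipocyte identity of the fat libraries was plain, with group means of *Adipoq* (adiponectin) of 911 to 1675 FPKM in visWAT and at most 0.549 FPKM in liver, while group means of *Alb* (albumin) were at least 26423 FPKM in liver and at most 94.2 FPKM in visWAT. The targeted gene *Mlkl* stood at 3.91 to 6.28 FPKM in 8 of the 9 WT visWAT libraries and at 1.96 to 2.72 FPKM in the 9 Mlkl Adi-KO visWAT libraries. The remaining visWAT library, labelled WT NCD mouse 182, held 2.29 FPKM of *Mlkl*, which goes against its label. In the WT NCD visWAT library of mouse 183, genes known from the seminal vesicle took 25.9% of the reads. Where leaving out either library changed a call of a member in visWAT, the value without it is given.

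On HFD, WT visWAT held more RNA of 7 members and less of 1. *Mmp2*, *Mmp14*, *Mmp3*, *Mmp13*, *Mmp19*, *Timp1* and *Timp2* rose and *Mmp9* fell, while *Timp3* and *Timp4* did not pass the threshold (limma on log2(FPKM + 1), Benjamini-Hochberg adjusted p under 0.05). That is 8 of 10 members, against 37.8% of the 14161 genes tested, with 7 members higher against 21.9% of all genes and 1 member lower against 15.8%. The median log2 difference was 1.13 over the 10 members and -0.01 over all genes tested. *Mmp3* and *Mmp13* reached the minimum of 0.5 FPKM for testing only through the HFD libraries and *Mmp9* only through the NCD libraries, so these 3 had to differ to be tested. Without WT NCD mice 182 and 183, the 8 members called kept their calls and directions and *Timp4* was called as lower, which makes 9 of 10. The log2 differences were then 1.99 for *Mmp2*, 1.46 for *Mmp14*, 2.89 for *Mmp3*, 0.75 for *Mmp13*, -1.504 for *Mmp9*, 1.04 for *Mmp19*, 3.25 for *Timp1* and 1.301 for *Timp2*. In the Mlkl Adi-KO mice, 9 members passed this minimum and 5 of them passed the threshold, against 43.7% of 14026 genes, 3 of them higher against 23.3% and 2 lower against 20.3%. Here *Mmp3* reached the minimum only through the HFD libraries. In visWAT, a lower level of a gene can come from fewer cells of a type or from less RNA per cell, and these cannot be told apart in whole tissue.

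The split of calls over all genes moved with the scaling. In the WT diet comparison 3108 genes were higher and 2239 lower on the deposited scale, 4298 and 253 on the TPM scale, where every library sums to the same total, and 2693 and 3169 with edgeR. The median of all genes shifted by 0.38 on the TPM scale. Relative to that median, the 8 members called kept their directions, at 2.33 for *Mmp2*, 1.58 for *Mmp14*, 3.66 for *Mmp3*, 1.39 for *Mmp13*, 1.03 for *Mmp19*, 3.15 for *Timp1*, 1.47 for *Timp2* and -2.51 for *Mmp9*. In the WT NCD visWAT library of mouse 183, seminal vesicle genes took 292587 of 564718 summed FPKM. The other WT NCD visWAT libraries summed to 243503 to 309820 FPKM, so TPM lowers the other genes of mouse 183. TPM was not run without this library, and its part in the shift was not tested. Each TPM comparison with WT NCD visWAT holds it.

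**Figure D1:**
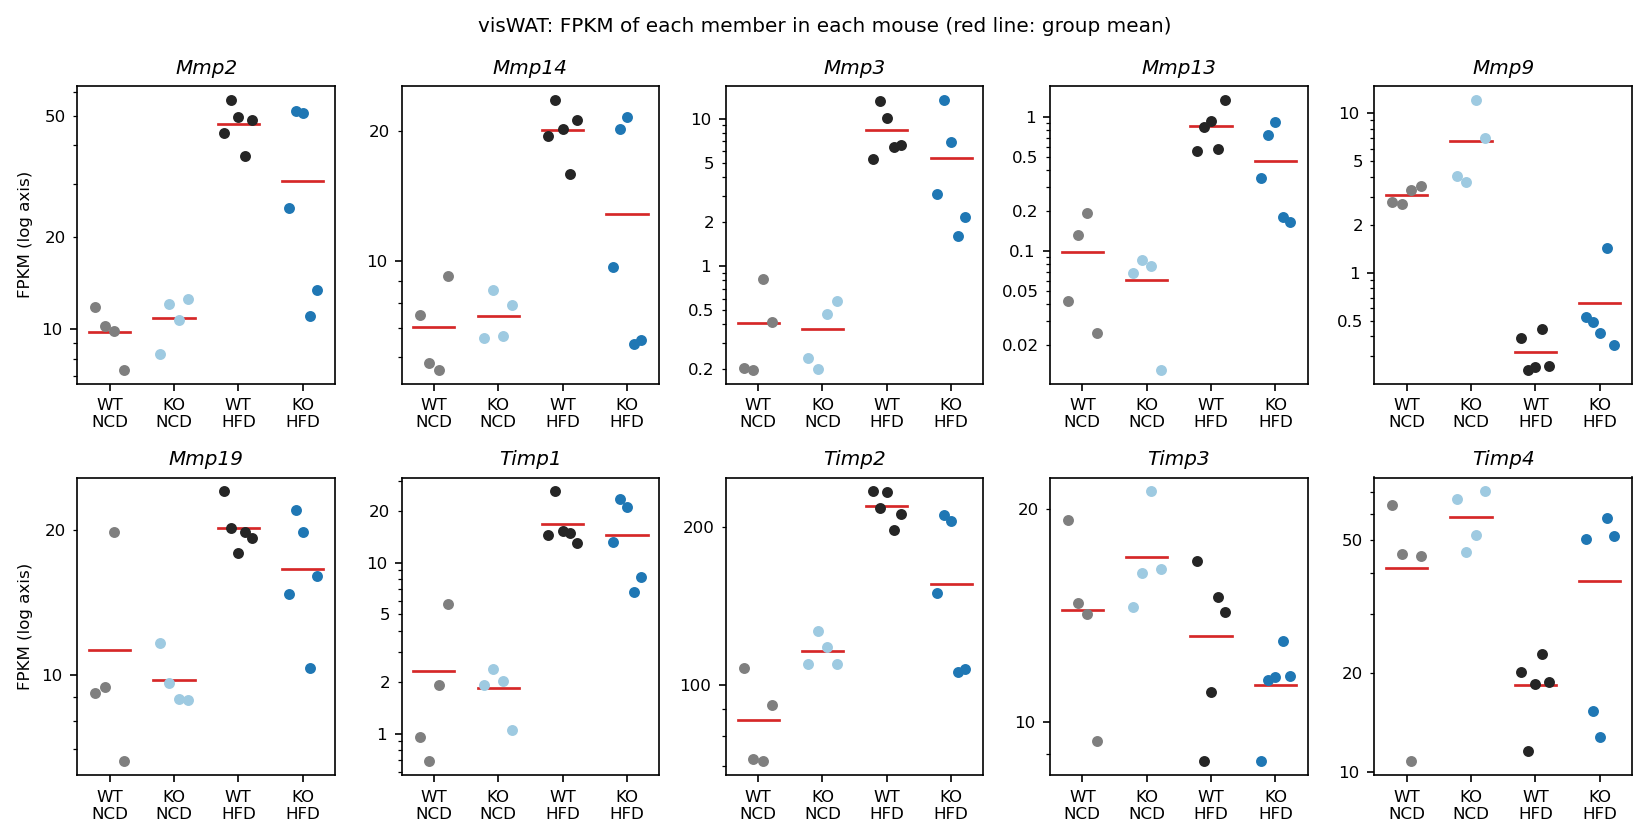
FPKM in visWAT on log axes, 1 panel per member, 1 point per mouse, with a red line at the group mean (n = 4 per NCD group, n = 5 per HFD group; KO is Mlkl Adi-KO). The WT HFD points lie above all WT NCD points for *Mmp2*, *Mmp14*, *Mmp3*, *Mmp13*, *Timp1* and *Timp2* and below them for *Mmp9*, and the Mlkl Adi-KO HFD points are spread widely, from 11.01 to 51.7 FPKM for *Mmp2*.

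*Mmp2* (chr8:93553919-93580048, plus strand, GRCm39) encodes gelatinase A, which cleaves denatured and basement membrane collagen. In WT mice it stood at 11.8, 10.3, 9.83 and 7.34 FPKM on NCD and at 43.99, 56.6, 49.4, 36.9 and 48.6 FPKM on HFD. Every HFD library was above every NCD library, and the group mean rose 4.80-fold, from 9.81 ± 1.84 FPKM to 47.1 ± 7.28 FPKM (mean ± SD, n = 4 and 5). The log2 difference was 2.16 (SE 0.15, adjusted p = 5.37e-06). In Mlkl Adi-KO mice *Mmp2* was at 8.25, 12.1, 10.7 and 12.5 FPKM on NCD and at 25.02, 51.7, 51.2, 11.01 and 13.4 FPKM on HFD, in the order of mice 151, 152, 153, 156 and 157. Mice 152 and 153 lay within the WT HFD range, mouse 151 below it, and mice 156 and 157 lay within or just above the NCD range. The diet difference of 1.16 did not pass the threshold in limma (adjusted p = 0.0654), but it passed without mouse 156 (adjusted p = 0.0184), without mouse 157 (0.0376), in edgeR (0.0293) and in DESeq2 (0.00177).

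*Mmp14* (chr14:54669069-54682821, plus strand) encodes MT1-MMP, the membrane-bound activator of proMMP2 and itself a collagenase. WT levels were 7.48, 5.82, 5.59 and 9.24 FPKM on NCD and 19.5, 23.6, 20.2, 15.8 and 21.1 FPKM on HFD. The 2 diets did not overlap in WT mice, and the mean rose 2.85-fold, with a log2 difference of 1.40 (SE 0.15, adjusted p = 8.99e-05). In Mlkl Adi-KO mice the levels were 6.63, 8.56, 6.71 and 7.92 FPKM on NCD and 9.65, 20.1, 21.5, 6.41 and 6.58 FPKM on HFD. Mice 152 and 153 again reached the WT HFD range, whereas mice 156 and 157 were below the lowest NCD library of their genotype. The diet difference in this genotype was 0.55 (SE 0.35, adjusted p = 0.23) and did not pass. The span of *Mmp14* holds the unnamed non-coding gene Gm56768 on the same strand, listed at up to 18.6 FPKM in visWAT, so reads shared between them are uncertain.

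*Mmp3* (stromelysin 1, chr9:7445822-7455975) and *Mmp13* (collagenase 3, chr9:7272514-7283331) lie 162 kb apart on the plus strand of chromosome 9. Stromelysin 1 has a broad range of matrix substrates and activates other proMMPs, and collagenase 3 cleaves fibrillar collagen. Both were near 0 on NCD and rose together, so the 250 bases in front of each gene start are shown, from the RefSeq promoter table (GRCm38.p6), with an AP-1 motif (TGACTCA or its reverse complement TGAGTCA) in capitals. Each sequence occurs once in GRCm39, at chr9:7272264-7272513 for *Mmp13* and at chr9:7445572-7445821 for *Mmp3*, both on the plus strand.
Mmp13: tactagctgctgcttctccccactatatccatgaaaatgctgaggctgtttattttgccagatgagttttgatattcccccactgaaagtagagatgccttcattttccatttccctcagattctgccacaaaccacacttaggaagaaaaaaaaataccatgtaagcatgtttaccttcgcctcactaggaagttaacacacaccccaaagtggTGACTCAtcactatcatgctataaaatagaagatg
Mmp3: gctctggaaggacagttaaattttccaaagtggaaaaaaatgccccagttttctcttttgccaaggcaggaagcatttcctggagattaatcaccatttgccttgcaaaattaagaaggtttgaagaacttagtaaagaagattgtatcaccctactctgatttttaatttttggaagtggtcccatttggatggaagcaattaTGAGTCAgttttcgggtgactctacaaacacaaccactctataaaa

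The AP-1 motif lay 35 to 29 bases before the start of *Mmp13* and 46 to 40 bases before that of *Mmp3*. It was searched on both strands of the 250 bases, and 4.46% of 32851 such stretches in the table hold it. The motif TATAAA stood at 16 to 11 bases before the start of *Mmp13* and at 7 to 2 bases before that of *Mmp3*, and 12.4% of all these stretches hold it. Promoters of 7 of the 10 members were in the table, and the AP-1 motif was found in no other of these 7. A GC box, GGGCGG on either strand, which 32.7% of the stretches hold, was found in those of *Mmp14*, *Timp1*, *Timp2* and *Timp3*. The promoters of *Mmp2*, *Mmp9* and *Mmp19* were not analysed here. These matches describe the letters only.

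*Mmp3* stood at 0.203, 0.196, 0.820 and 0.417 FPKM in WT mice on NCD, which rests on 11 to 40 reads per library. On HFD the 5 WT libraries held 5.29, 13.2, 10.1, 6.44 and 6.66 FPKM, each above the highest NCD value. The ratio of the means was 20.4, and the log2 difference was 2.68 (SE 0.24, adjusted p = 2.73e-05). In Mlkl Adi-KO mice *Mmp3* was at 0.237, 0.199, 0.473 and 0.575 FPKM on NCD and at 3.06, 13.5, 6.92, 1.60 and 2.14 FPKM on HFD. The diets did not overlap here either, although mice 156 and 157 were the lowest of all HFD mice, and *Mmp3* rose by 1.93 (SE 0.46, adjusted p = 0.00873) on the log2 scale.

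*Mmp13* was detected with 1 to 14 reads per NCD library of visWAT. WT levels were 0.0421, 0.132, 0.193 and 0.0244 FPKM on NCD and 0.555, 0.842, 0.928, 0.579 and 1.35 FPKM on HFD. No HFD library overlapped the NCD range, the mean was 8.68 times higher, and the log2 difference was 0.74 (SE 0.13, adjusted p = 0.00177), which the added 1 FPKM makes small for a gene at this level. In Mlkl Adi-KO mice *Mmp13* stood at 0.0685, 0.0852, 0.0770 and 0.0129 FPKM on NCD and at 0.353, 0.738, 0.912, 0.178 and 0.163 FPKM on HFD. These did not overlap, but the mean was under 0.5 FPKM and the gene stayed out of the fit. A two-sided exact permutation test of this member alone gave p = 0.0238.

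*Mmp9* (chr2:164782700-164797770, plus strand) encodes gelatinase B, an enzyme made by neutrophils and macrophages among other cells. It was the only member called as lower in WT visWAT by limma on all libraries. WT levels were 2.77, 2.71, 3.29 and 3.48 FPKM on NCD and 0.391, 0.247, 0.259, 0.445 and 0.261 FPKM on HFD. All HFD libraries lay below all NCD libraries, and the mean was 9.54 times lower. The log2 difference was -1.62 (SE 0.08, adjusted p = 1.05e-06). Mlkl Adi-KO mice held 4.03, 3.71, 12.2 and 6.94 FPKM on NCD and 0.533, 0.495, 0.423, 1.44 and 0.352 FPKM on HFD. The fall was present in this genotype too, at -2.13 (SE 0.31, adjusted p = 0.00094) on the log2 scale, and the highest HFD value was that of mouse 156. The summed level of 8 neutrophil markers went the other way, from 2.49 to 6.21 FPKM in NCD libraries to 8.83 to 15.2 FPKM in HFD libraries of visWAT. On HFD most of this sum was *S100a8*, with a WT mean of 8.54 FPKM, whereas *Elane*, neutrophil elastase, went from 1.63 FPKM on NCD to 0.280 FPKM on HFD in WT mice. The defining markers *Cxcr2* and *Ly6g* were at or near 0 in every group. The part of neutrophils in the level of *Mmp9* was not tested.

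*Mmp19* (chr10:128626779-128636693, plus strand), which encodes an MMP that cleaves basement membrane proteins, had the smallest ratio of means among the 7 members that rose, 1.80. WT levels were 9.15, 9.40, 19.8 and 6.60 FPKM on NCD and 24.1, 20.1, 17.9, 19.8 and 19.2 FPKM on HFD. The groups overlapped through the library labelled WT NCD mouse 182, which held 19.8 FPKM. The log2 difference was 0.89 (SE 0.25, adjusted p = 0.0194), and it missed the threshold without mouse 165 (adjusted p = 0.0515) or mouse 180 (0.0537). Without the library labelled 182 it was 1.19 with an adjusted p of 0.00017. Mlkl Adi-KO mice stood at 11.6, 9.61, 8.91 and 8.85 FPKM on NCD and at 14.7, 22.03, 19.8, 10.3 and 16.1 FPKM on HFD. The difference of 0.68 (SE 0.19, adjusted p = 0.0185) passed, with mouse 156 inside the NCD range, and leaving out 1 mouse gave adjusted p-values of 0.00209 to 0.0517, with the threshold missed without mouse 197 or 199. *Tmem198b*, on the opposite strand of the same span, was listed at up to 3.997 FPKM.

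*Timp1* (chrX:20736405-20740974, plus strand) encodes the inducible member of the inhibitor family, which binds MMP9 and most soluble MMPs. Levels in WT mice were 0.950, 0.688, 1.91 and 5.73 FPKM on NCD and 14.6, 26.2, 15.4, 14.9 and 12.97 FPKM on HFD. All HFD libraries exceeded all NCD libraries, the highest NCD value being that of mouse 183 and the highest HFD value that of mouse 155. The ratio of the means was 7.24 and the log2 difference 2.61 (SE 0.38, adjusted p = 0.000604), with 2.36 to 3.02 on leaving out 1 mouse. Mlkl Adi-KO mice had 1.92, 2.38, 2.02 and 1.05 FPKM on NCD and 13.2, 23.4, 21.02, 6.76 and 8.24 FPKM on HFD. The diets did not overlap, and *Timp1* rose by 2.33 (SE 0.35, adjusted p = 0.00109) in this genotype. *Timp1*, *Timp3* and *Timp4* each lie inside a synapsin gene on the opposite strand, *Syn1*, *Syn3* and *Syn2*, which were listed at no more than 1.77 FPKM in visWAT.

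*Timp2* (chr11:118191895-118246566, minus strand) encodes the inhibitor that also takes part in the activation of proMMP2 by MMP14. It was the most abundant member in every visWAT group. WT levels were 108, 72.2, 71.4 and 91.4 FPKM on NCD and 235, 218, 234, 198 and 212 FPKM on HFD. The HFD libraries were all higher, the mean rose 2.56-fold, and the log2 difference was 1.36 (SE 0.14, adjusted p = 5.78e-05). Mlkl Adi-KO mice stood at 109.6, 127, 118 and 109.7 FPKM on NCD and at 149.7, 211, 206, 106 and 107 FPKM on HFD. In this genotype the diets overlapped, since mice 156 and 157 were below all 4 NCD libraries, and the difference of 0.36 (SE 0.22, adjusted p = 0.213) did not pass.

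*Timp3* (chr10:86136236-86185370, plus strand), the inhibitor that is bound to the matrix and also blocks ADAM proteases, was at 19.3, 14.7, 14.2 and 9.38 FPKM on NCD and at 16.9, 8.78, 10.999, 15.03 and 14.3 FPKM on HFD in WT mice. The groups overlapped, and the log2 difference of -0.11 (SE 0.22, adjusted p = 0.728) changed sign on leaving out mouse 155 or 165 and on the TPM scale. Mlkl Adi-KO mice held 14.5, 16.2, 21.2 and 16.5 FPKM on NCD and 8.79, 11.5, 11.5, 12.9999 and 11.6 FPKM on HFD. Here no library overlapped between diets, and *Timp3* fell by 0.56 (SE 0.13, adjusted p = 0.00679) on the log2 scale.

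*Timp4* (chr6:115218853-115229166, minus strand) encodes an inhibitor known from heart and fat. WT levels were 64.1, 45.4, 10.8 and 44.98 FPKM on NCD, in the order of mice 165, 180, 182 and 183, and 20.02, 11.6, 18.5, 22.7 and 18.8 FPKM on HFD. The library labelled WT NCD mouse 182 lay below all HFD libraries and the other 3 NCD libraries lay above them. With that library, the log2 difference was -0.92 (SE 0.45, adjusted p = 0.134) and did not pass. Without it, the difference was -1.45 with an adjusted p of 0.000805, and the count tests on all libraries gave adjusted p-values of 0.0362 (edgeR) and 0.00583 (DESeq2). Mlkl Adi-KO mice had 66.8, 46.2, 51.9 and 70.4 FPKM on NCD and 50.4, 15.4, 12.8, 58.4 and 51.4 FPKM on HFD. Mice 152 and 153 held less than any NCD mouse and the other 3 lay within the NCD range, so that the difference of -0.86 (SE 0.47, adjusted p = 0.162) did not pass.

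Of the 10 members, 7 did not overlap between the diets in WT visWAT, all those called but *Mmp19*, against 33.4% of the genes tested. In Mlkl Adi-KO visWAT 4 of the 9 members tested did not overlap, namely *Mmp3*, *Mmp9*, *Timp1* and *Timp3*, against 38.4% of genes. *Mmp3*, *Mmp13* and *Mmp9* in WT mice, and *Mmp3* in Mlkl Adi-KO mice, reached the minimum only through the diet on which they were higher. For these the filter itself favoured a lack of overlap.

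**Figure D2:**
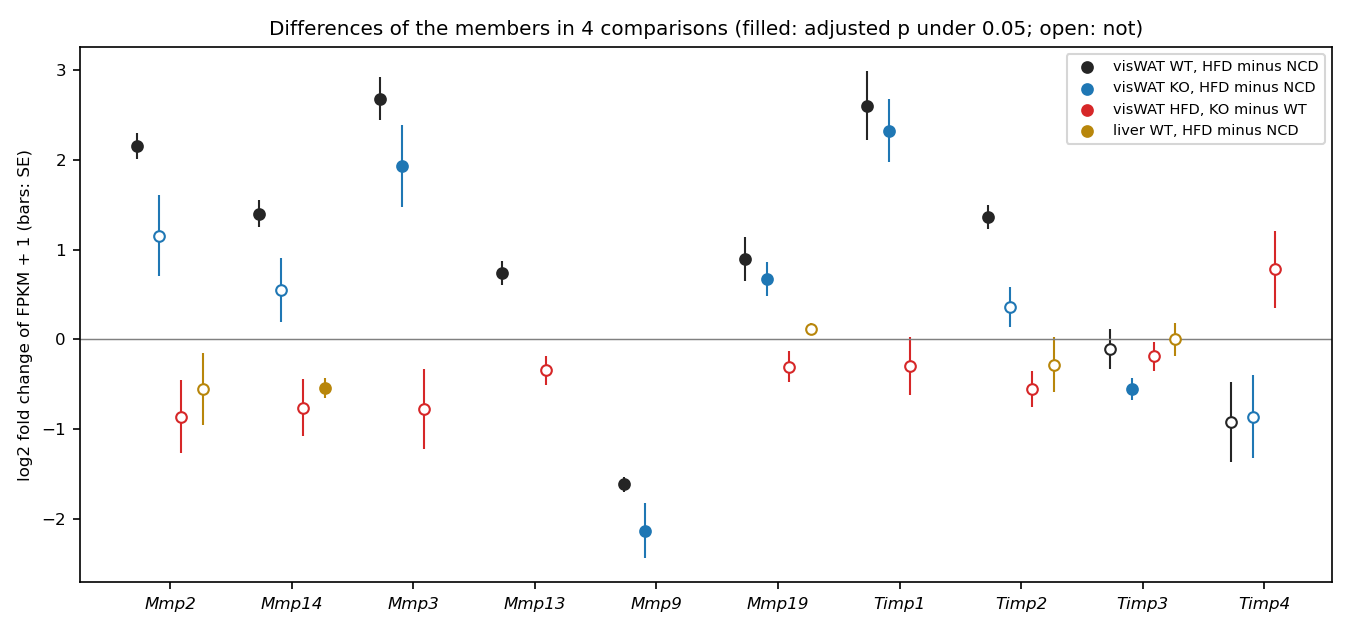
Differences on the log2(FPKM + 1) scale, 1 position per member, for 4 comparisons marked by colour, with bars of 1 SE; filled points have an adjusted p under 0.05 in limma and members under the minimum level have no point. The diet differences of visWAT reach 2.68 (*Mmp3*, WT) and -2.13 (*Mmp9*, Mlkl Adi-KO), and all points for genotype on HFD are open.

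Between the genotypes on HFD, none of the 9 members tested in visWAT passed the threshold, against 0.0215% of 13963 genes. At an unadjusted p under 0.05, limma counted 2 members (*Mmp14* and *Timp2*), and edgeR and DESeq2 on the recovered reads counted 2 each (*Timp2* and *Timp4*), with none past the adjusted threshold. Of all 13963 genes, limma counted 3003 at that unadjusted p, edgeR 2983 and DESeq2 3325, so the members were near the share of all genes. All 10 members overlapped between the genotypes, where 3.01% of genes did not. The mean of Mlkl Adi-KO mice was lower than that of WT mice for 8 members, and higher for *Timp4* and for *Mmp9*, which was under the minimum level. The mean of *Timp2* was 156 ± 51.1 FPKM in Mlkl Adi-KO mice against 219 ± 15.5 FPKM in WT mice, a log2 difference of -0.55 (SE 0.20, adjusted p = 0.221) with an exact permutation p of 0.0397. For *Mmp14* the difference was -0.76 (SE 0.32, adjusted p = 0.223) and for *Mmp2* it was -0.86 (SE 0.41, adjusted p = 0.24). *Timp4* had a mean of 37.7 ± 21.8 FPKM against 18.3 ± 4.10 FPKM, a difference of 0.78 (SE 0.43, adjusted p = 0.282). *Mmp9* was at 0.648 ± 0.446 FPKM against 0.321 ± 0.0912 FPKM, with an exact permutation p of 0.0397 for this member alone.

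The spread of the 5 Mlkl Adi-KO HFD mice was wide and moved with cell type markers. The sum of 12 macrophage markers was 2109, 3038, 3354, 1164 and 1109 FPKM in mice 151, 152, 153, 156 and 157, against 2600 to 3729 FPKM in WT HFD mice and 330 to 672 FPKM on NCD. The sum of 11 fibroblast and progenitor markers was 531, 929, 869, 346 and 433 FPKM in the same mice, against 706 to 908 FPKM in WT HFD mice. For 9 markers of mature adipocytes the order was the opposite, with 10147, 5971, 5566, 12099 and 11484 FPKM, against 4960 to 6269 FPKM in WT HFD mice. Mice 156 and 157, lowest in the macrophage and fibroblast sums, were also lowest in *Mmp2*, *Mmp14*, *Mmp3*, *Timp1* and *Timp2*, while mice 152 and 153, highest of the 5 in these sums, were the lowest of the 5 in *Timp4*. None of these marker genes was at 0 in a whole visWAT group. Their part in the levels of the members was not tested.

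**Figure D3:**
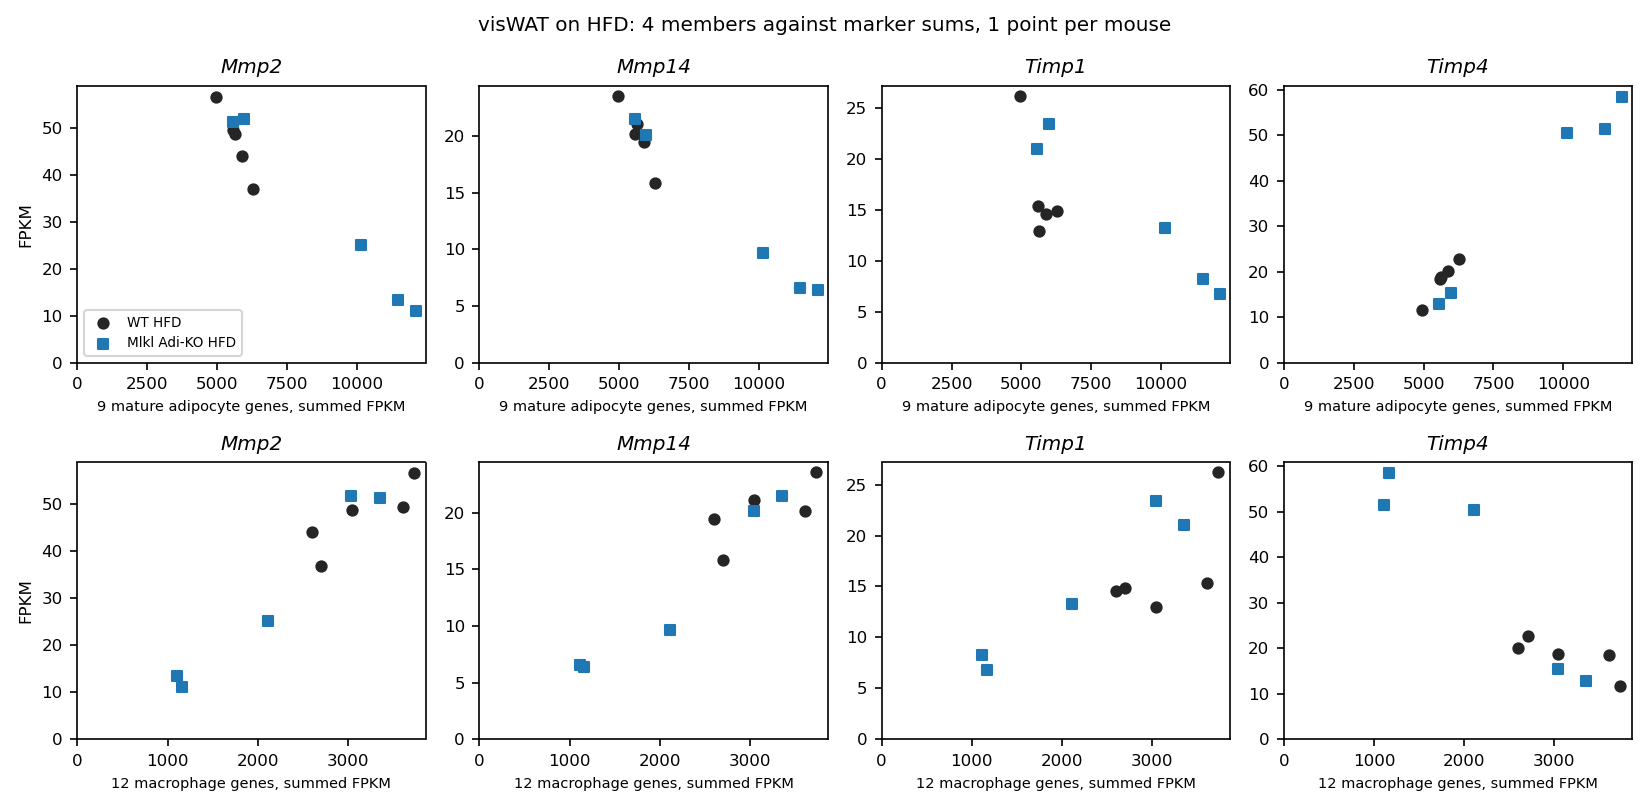
FPKM of *Mmp2*, *Mmp14*, *Timp1* and *Timp4* in the 10 HFD visWAT libraries (circles, WT; squares, Mlkl Adi-KO) against the summed FPKM of 9 mature adipocyte genes (upper row) and of 12 macrophage genes (lower row). The 3 Mlkl Adi-KO mice with adipocyte sums of 10147 to 12099 FPKM have the lowest *Mmp2* and *Mmp14* and the highest *Timp4*, and the other 2 lie among the WT mice.

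Whether the response to the diet differed with genotype was tested as an interaction over the 18 visWAT libraries. None of 9 members passed in limma, as none of 14136 genes did (0%), and with edgeR and DESeq2 none of the members passed either. At an unadjusted p under 0.05 were 1867 of the 14136 genes in limma, 2042 in edgeR and 2198 in DESeq2. *Timp2* was the only member among them by each of the 3 tools. Its diet difference in Mlkl Adi-KO mice minus that in WT mice was -1.003 on the log2 scale (SE 0.27, adjusted p = 0.314 in limma), and the same quantity was -1.001 for *Mmp2* (SE 0.51, adjusted p = 0.4) and -0.85 for *Mmp14* (SE 0.40, adjusted p = 0.381).

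On NCD, none of 8 members tested differed between the genotypes in visWAT by the adjusted p, against 0% of 14063 genes. An unadjusted p under 0.05 was found for 528 of these genes in limma, 615 in edgeR and 665 in DESeq2, and for the same 2 members by each tool. These were *Mmp9*, with means of 6.71 ± 3.92 FPKM in the Mlkl Adi-KO group and 3.06 ± 0.380 FPKM in the WT group, and *Timp2*, with 116 ± 8.19 FPKM and 85.7 ± 17.4 FPKM. Both were higher in each of the 4 Mlkl Adi-KO mice than in any WT mouse. A lack of overlap in either direction was found for 2.46% of genes. Their exact permutation p of 0.0286 is the smallest that 4 against 4 mice allow. Without mice 182 and 183 the log2 differences were 0.92 for *Mmp9* and 0.39 for *Timp2*. The log2 differences were 0.80 (SE 0.30, adjusted p = 0.916) and 0.45 (SE 0.15, adjusted p = 0.916).

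The order of the levels changed with diet. In WT visWAT on NCD, *Timp2* led with 85.7 FPKM, above *Timp4* (41.3), *Timp3* (14.4), *Mmp19* (11.2), *Mmp2* (9.81), *Mmp14* (7.03), *Mmp9* (3.06), *Timp1* (2.32), *Mmp3* (0.409) and *Mmp13* (0.098) in mean FPKM. The ranges of neighbours from *Timp4* down to *Mmp14* overlapped, as did those of *Mmp9*, *Timp1* and *Mmp3*. On HFD the WT order was *Timp2* (219), *Mmp2* (47.1), *Mmp19* (20.2), *Mmp14* (20.03), *Timp4* (18.3), *Timp1* (16.8), *Timp3* (13.2), *Mmp3* (8.34), *Mmp13* (0.851) and *Mmp9* (0.321), with overlapping neighbours from *Mmp19* down to *Mmp3*. In Mlkl Adi-KO mice on HFD, *Timp2* (155.8) was followed by *Timp4* (37.7) and *Mmp2* (30.5), whose ranges overlapped.

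Summed over the 4 inhibitors and the 6 proteases, WT visWAT held 2.49 to 6.11 FPKM of *Timp* RNA per FPKM of *Mmp* RNA on NCD (median 5.13) and 2.31 to 3.14 on HFD (median 2.82). The library labelled WT NCD mouse 182 gave the low end on NCD. In Mlkl Adi-KO mice the ratio was 4.95 to 6.25 on NCD (median 5.48) and 2.41 to 5.94 on HFD (median 4.17). *Timp2* made up 79.0% to 83.9% of the inhibitor RNA in WT HFD visWAT. In liver the ratio was 0.192 to 0.602 over all 18 libraries. These ratios leave out the metalloproteases outside the family, which summed to 24.6 to 31.1 FPKM on NCD and 102 to 137 FPKM on HFD in WT visWAT.

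In liver, *Mmp19* had the highest mean of the members in every group, followed by *Mmp14* and *Timp2*, whose ranges overlapped in 3 of the 4 groups. *Mmp14* fell on HFD in both genotypes. *Mmp14* stood at 8.71, 7.82, 10.5 and 7.34 FPKM in WT mice on NCD and at 5.10, 5.83, 6.61, 5.55 and 4.75 FPKM on HFD. These did not overlap, and the log2 difference was -0.54 (SE 0.11, adjusted p = 0.00678). In Mlkl Adi-KO livers *Mmp14* was at 9.94, 9.82, 8.79 and 7.62 FPKM on NCD and 5.73, 7.12, 6.08, 7.04 and 6.66 FPKM on HFD, again without overlap, with a difference of -0.41 (SE 0.09, adjusted p = 0.0103). Of 5 members tested, *Mmp14* was the 1 called in WT liver, against 25.3% of 13330 genes, and 2 were called in Mlkl Adi-KO liver, against 22.2% of 13149 genes. The diets did not overlap for 24.8% of genes in WT liver and 21.5% in Mlkl Adi-KO liver.

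*Mmp19* was the second member called in Mlkl Adi-KO liver, with 16.1, 18.1, 12.8 and 14.003 FPKM on NCD and 21.7, 17.8, 21.5, 18.9 and 22.3 FPKM on HFD. The highest NCD library reached above the lowest HFD library, the log2 difference was 0.40 (SE 0.11, adjusted p = 0.0224), and it missed the threshold without mouse 153, 157, 197 or 199 (adjusted p up to 0.0631). In WT liver *Mmp19* stood at 17.2, 18.7, 16.9 and 20.002 FPKM and 18.5, 21.3, 20.8, 19.5 and 18.7 FPKM, a difference of 0.12 (SE 0.07, adjusted p = 0.238). The 2 diet responses were not shown to differ, with an interaction of 0.29 (SE 0.13, adjusted p = 0.795).

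*Mmp2*, *Timp2* and *Timp3* in liver were set apart by 1 library. Mouse 182 on NCD held 6.30 FPKM of *Mmp2*, 15.1 of *Timp2*, 4.26 of *Timp3* and 1.20 of *Timp1*. The other 17 livers lay between 0.254 and 1.16 FPKM for *Mmp2*, between 2.94 and 7.24 for *Timp2* and between 1.47 and 3.17 for *Timp3*. The same library had the highest fibroblast marker sum of all livers, 142 FPKM against 49.2 to 81.0 FPKM in the others, and a macrophage sum of 243 FPKM, where the others ranged from 73.1 to 254 FPKM. Their part in these levels was not tested. Neither *Mmp2* nor *Timp2* nor *Timp3* passed the threshold for diet or genotype in liver. The diet difference of *Timp2* in WT liver was -0.28 with mouse 182 and 0.0660 without it.

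The remaining members were close to the limit of detection in liver. *Timp1* was found with 0 to 22 reads, *Mmp13* with 0 to 17, *Mmp9* with 2 to 16 and *Mmp3* with 0 to 6 reads per library. *Timp4* had 1 read over the 4 WT NCD livers and 13 over the 5 WT HFD livers, of which 9 came from mouse 155. It had none in the 9 Mlkl Adi-KO livers, where a count of 0 allows up to 3 reads per library. Between genotypes no member passed in liver on HFD, against 0.197% of 13215 genes, with *Mmp14* at an unadjusted p under 0.05 in limma, edgeR and DESeq2. Of all these genes, 1664 were at that unadjusted p in limma, 1680 in edgeR and 1656 in DESeq2. Among members under the minimum level, *Mmp13* was lower and *Mmp9* higher in all 4 Mlkl Adi-KO NCD livers than in any WT NCD liver, with means of 0.0480 ± 0.0270 FPKM against 0.188 ± 0.0847 FPKM and of 0.157 ± 0.0535 FPKM against 0.0541 ± 0.0210 FPKM. Each exact permutation p was 0.0286, the smallest possible, and groups did not overlap for 2.8% of the genes tested there. In Mlkl Adi-KO liver, the diets gave an exact permutation p of 0.0238 for *Mmp9*. These values rest on at most 17 reads per library. On NCD none of the 5 members tested passed in liver either, against 0.00758% of 13193 genes, with 0 members at an unadjusted p under 0.05 in limma, 3 in edgeR and 2 in DESeq2. The counts over all genes at that unadjusted p were 574, 623 and 614. The interaction of genotype and diet in liver had none of 5 members past the threshold, against 0.0151% of genes, with 1 at an unadjusted p under 0.05 in limma and edgeR and 2 in DESeq2. Of all 13248 genes, 811 were at that unadjusted p in limma, 848 in edgeR and 825 in DESeq2.

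Set against liver of the same WT mice, visWAT held more of most members tested. RNA was extracted from fat with a phenol-based reagent, given as TRIzol in the labels and as QIAzol in the study's methods, and from liver with a column kit, so tissue and extraction cannot be told apart. On NCD 7 of 8 members tested differed, against 65.5% of 14544 genes, 6 of them higher in visWAT against 31.5% and 1 lower against 34% of genes. *Timp4*, *Mmp9* and *Timp1* reached the minimum level only through visWAT, so these 3 had to differ to be tested. The log2 differences, visWAT minus liver, were 5.16 (SE 0.47, adjusted p = 2.12e-05) for *Timp4*, 3.45 (SE 0.33, adjusted p = 3.04e-05) for *Timp2*, 2.09 (SE 0.25, adjusted p = 0.000106) for *Timp3*, 2.07 (SE 0.45, adjusted p = 0.00355) for *Mmp2* and 1.94 (SE 0.09, adjusted p = 3.77e-07) for *Mmp9*. *Timp1* and *Mmp19* passed narrowly, at 1.16 (SE 0.45, adjusted p = 0.0491) and -0.75 (SE 0.27, adjusted p = 0.038), and neither passed with the mouse as a block (adjusted p of 0.0592 and 0.0617), where 5 members were called. Both calls were also lost without mouse 165 (adjusted p of 0.106 for *Timp1* and 0.137 for *Mmp19*), without mouse 180 (0.0686 and 0.152) or without mouse 183 (0.157 and 0.158). In edgeR neither passed (0.0775 and 0.0893), and in DESeq2 *Timp1* passed (0.0459) and *Mmp19* did not (0.0644). On the TPM scale *Mmp19* was at -0.15 (adjusted p = 0.769), or -0.70 relative to the median of all genes there. *Mmp14* did not pass, at -0.27 (SE 0.16, adjusted p = 0.18), but passed without mouse 183 (-0.46, adjusted p = 0.0352). On the TPM scale *Mmp14* was above 0, at 0.33, but at -0.22 relative to that median.

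On HFD 8 of 9 members tested were higher in WT visWAT than in liver, against 84.6% of 14666 genes differing and 41.6% higher. *Timp4*, *Timp1*, *Mmp3* and *Mmp13* reached the minimum only through visWAT and had to differ to be tested. On the log2(FPKM + 1) scale, which understates the change of members that are near 0 in liver, the difference was 5.09 (SE 0.13, adjusted p = 7.48e-12) for *Timp2*, and *Mmp2* followed with 4.79 (SE 0.11, adjusted p = 5.62e-12), *Timp4* with 4.21 (SE 0.14, adjusted p = 8.20e-11) and *Timp1* with 3.55 (SE 0.17, adjusted p = 1.83e-09). On the same scale the differences were 3.09 for *Mmp3*, 1.97 for *Timp3*, 1.67 for *Mmp14* and 0.65 for *Mmp13*. *Mmp19* did not pass, at 0.03 (SE 0.07, adjusted p = 0.745), with 20.2 ± 2.32 FPKM in visWAT and 19.8 ± 1.28 FPKM in liver. The median of all genes shifted by 0.58 on NCD and 0.92 on HFD on the TPM scale, on which *Mmp19* in HFD was called at 1.11, or 0.20 above that median. On that scale 7019 genes were higher and 2357 lower in visWAT on NCD, against 4580 and 4947 on the deposited scale, and 12920 and 3186 on HFD, against 6101 and 6313.

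The response to HFD differed between visWAT and liver of WT mice for 7 of 9 members tested, against 40% of 14746 genes, 6 of them with a higher value in visWAT against 21.8% and 1 with a lower value against 18.2%. *Mmp3* reached the minimum level only through visWAT on HFD and *Mmp9* only through visWAT on NCD, so their responses had to differ to be tested. *Timp1* and *Timp4* reached it only through visWAT, with liver close to the limit of detection. For *Mmp2* the diet difference was 2.71 larger in visWAT on the log2 scale (SE 0.45, adjusted p = 0.000158), for *Timp1* 2.39 (SE 0.47, adjusted p = 0.000732), for *Mmp3* 2.67 (SE 0.26, adjusted p = 6.72e-07) and for *Timp2* 1.64 (SE 0.35, adjusted p = 0.00133). *Mmp14*, which rose in visWAT and fell in liver, differed by 1.94 (SE 0.19, adjusted p = 7.88e-07). *Mmp9* differed by -1.68 (SE 0.11, adjusted p = 8.98e-09), in the other direction. *Mmp19* differed by 0.78 (SE 0.27, adjusted p = 0.0305), but not with the mouse as a block (adjusted p = 0.061) nor without mouse 154, 155, 162, 164, 165, 180 or 183 (0.0527 to 0.0973), nor in edgeR (0.0905) or DESeq2 (0.0614). *Timp1* did not pass at a pseudocount of 0.1 (0.101), in edgeR (0.111) or in DESeq2 (0.0608). For *Timp4* the value was -0.95 (SE 0.47, adjusted p = 0.123), and it passed without mouse 182 (-1.48) and in DESeq2 (adjusted p = 0.00364). Over all genes, 3214 responses were higher in visWAT and 2687 lower, against 4609 and 719 on the TPM scale, where the median shifted by 0.36.

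**Figure D4:**
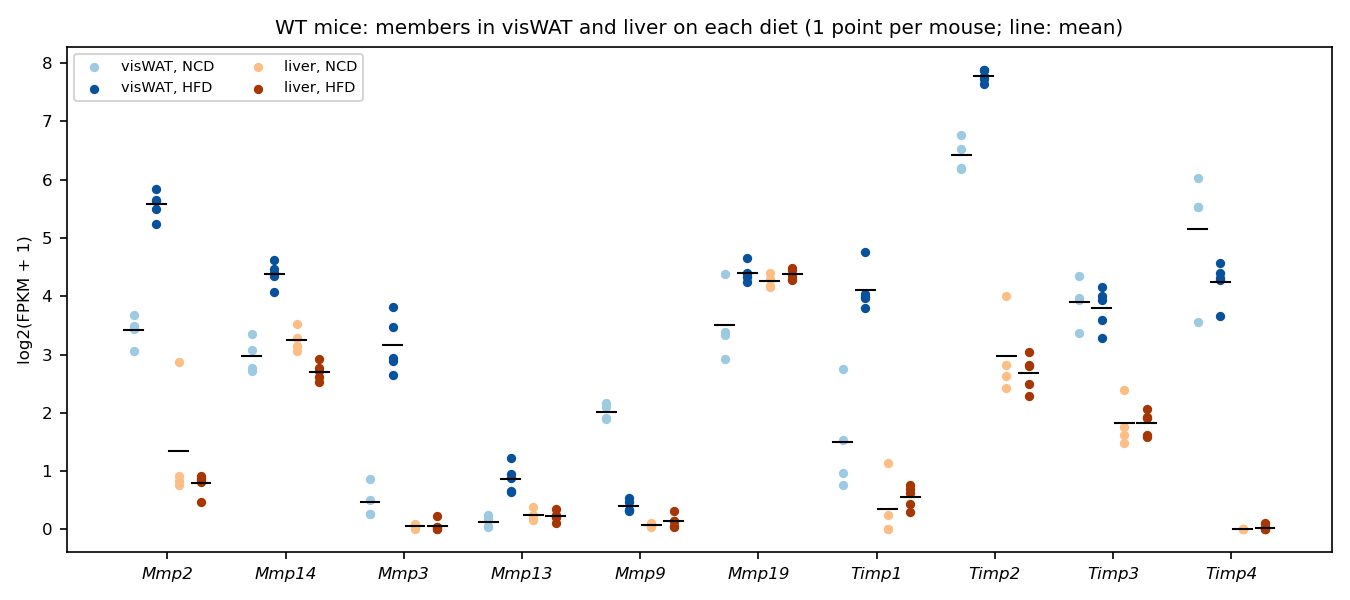
log2(FPKM + 1) of each member in the WT mice, 1 point per mouse and a line at the mean, in visWAT (blue) and liver (orange) on NCD (light) and HFD (dark). In visWAT the HFD points of *Mmp2*, *Mmp14*, *Mmp3*, *Timp1* and *Timp2* stand above the NCD points, in liver those of *Mmp14* stand below, and *Timp4* is at or near 0 in liver.

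Among 17 other matrix metalloproteases, 8 reached the minimum level in WT visWAT and 6 of these changed with diet, against 37.8% of all genes, 4 up against 21.9% and 2 down against 15.8%. Among the 4, *Mmp12* and *Mmp27* reached the minimum only through HFD and had to differ to be tested. The largest value was that of *Mmp12*, the macrophage elastase, which went from 0.285 ± 0.278 to 71.4 ± 14.3 FPKM, a log2 difference of 5.82 (SE 0.18, adjusted p = 2.00e-07). *Mmp11* (stromelysin 3) rose from 4.76 ± 2.53 to 20.1 ± 4.43 FPKM, by 1.96 on the log2 scale (adjusted p = 0.000572), and *Mmp23* from 8.07 to 14.3 FPKM, by 0.76 (0.000186). *Mmp15* fell by 0.56 (0.00349). On the TPM scale, where the median of all genes was 0.38, it was at -0.23 and missed the threshold (adjusted p = 0.566). *Mmp28* fell by 0.30 (0.0323), which was lost on leaving out any of mice 154, 155, 161, 165, 180 and 183. On the TPM scale the sign of *Mmp28* changed, to 0.14, which was below that median. In Mlkl Adi-KO visWAT 4 of 6 tested were called, against 43.7% of genes, with *Mmp12* at 4.86 and *Mmp11* at 1.42 on the log2 scale. Here too *Mmp12* reached the minimum only through HFD and had to differ to be tested. *Mmp12* held 10.8 to 72.6 FPKM in Mlkl Adi-KO HFD mice and 49.8 to 87.8 FPKM in WT HFD mice. In liver, *Mmp15* was the 1 of 3 tested that passed for diet in WT mice, against 25.3% of all genes, with a rise from 13.5 to 16.9 FPKM (adjusted p = 0.0238). The call was lost without mouse 154, 164 or 180 and in 1 fit over 4 groups (adjusted p = 0.0813).

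Of 20 genes that activate or regulate MMPs, 17 were tested in WT visWAT, where 11 rose and 1 fell on HFD, against 21.9% and 15.8% of all genes. The largest differences were those of *Cd44*, a hyaluronan receptor that docks MMPs at the cell surface, from 1.79 ± 0.356 to 21.2 ± 2.14 FPKM (adjusted p = 2.23e-07), and of *Plau*, urokinase, from 27.0 ± 12.5 to 78.8 ± 13.2 FPKM (adjusted p = 0.0012). *Thbs1* (thrombospondin 1) passed at 0.039 and was lost on leaving out any WT mouse but 165 and in edgeR and DESeq2. In Mlkl Adi-KO visWAT 8 of 18 were called, close to the 43.7% of all genes, 6 up and 2 down, led by *Cd44* (log2 difference 1.89), *Sparc* (1.31) and *Plaur*, the urokinase receptor (1.05). In WT liver 3 of 15 were called, against 25.3% of genes, a rise of *Pcsk6* from 32.2 to 52.1 FPKM and small falls of *Reck* and *Itgb3*, and in Mlkl Adi-KO liver 1 of 13, *Pcsk6*, against 22.2%. The fall of *Reck* was lost on leaving out mouse 154, 161, 162, 164, 165 or 183, and that of *Itgb3* on leaving out any of these or mouse 180. *Plg*, the precursor of plasmin, stood at 525 ± 79.3 FPKM in WT NCD liver and at 0.0657 ± 0.0352 FPKM in visWAT, and 15 of 18 of these genes differed between the tissues on NCD, 8 of them higher in visWAT, against 65.5% of all genes differing. On HFD 18 of 18 differed, against 84.6%.

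Among 15 ADAM and ADAMTS proteases, relatives that TIMP3 also inhibits, 9 rose and 1 fell in WT visWAT, against 21.9% and 15.8% of all genes. *Adam8* went from 0.815 ± 0.289 to 58.9 ± 12.3 FPKM (log2 difference 5.03, adjusted p = 2.04e-07), *Adamts2* from 8.57 to 20.3 FPKM and *Adam19* from 1.49 to 4.30 FPKM. In Mlkl Adi-KO visWAT 4 of 14 were called, fewer than the 43.7% of all genes, with *Adam8* at 3.70 and *Adam12* at 0.99 higher and *Adamts9* at -0.73. Beside these lists, 11 of the 12 macrophage markers were higher on HFD in WT visWAT, against 21.9% of all genes, with a median log2 difference of 2.92. In Mlkl Adi-KO visWAT 10 were higher, against 23.3%, with a median of 1.84. Of 11 fibroblast and progenitor markers, 10 were higher in WT and 7 in Mlkl Adi-KO visWAT. Of 9 mature adipocyte markers 5 were lower, against 15.8% of all genes, and 1 higher in WT visWAT. There 4 of 7 endothelial markers were lower, 2 of 3 neutrophil markers tested were higher and 1 lower, and none of 6 mesothelial markers was called.

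The genes whose levels ran most like some members over the 18 visWAT libraries were ranked by Pearson's r of log2(FPKM + 1) among 11156 genes. These r describe libraries that fall into diet groups, and no test was made. For *Timp1* they were *Ap2m1*, *Pitpna* and *Nedd4l* (each 0.98), for *Mmp3* *Sdcbp* (0.99), *Ccdc88b* and *Tubb6* (both 0.98), and for *Mmp13* *Nostrin*, *Nhlrc3* and *Rasa1* (each 0.97). For *Mmp14* they were *Cadm1* (0.98), *Lamp2* and *Spred1* (both 0.97), and for *Timp4* *Sctr* (0.97), *Eepd1* and *Rasgrf2* (0.95 each).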

How the data were processed

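RNA of visWAT and liver from 18 mice was analysed, 36 libraries in all. The authors selected polyadenylated RNA, mapped reads with HISAT2 to mm39 and counted them on genes with featureCounts (version 1.5.0-p3 in the submitters' processing notes), and strandedness is not given in the sources used here. They deposited FPKM for 56748 genes, with the gene length in bases. The counts of reads in the authors' comparison tables cover only some genes. They served to recover the size behind the FPKM, with which 100% of the FPKM gave whole reads (within 0.01). Divided by the reads that fell on genes, that size was 1.01 to 1.40 for visWAT libraries and 0.737 to 0.812 for liver libraries, which shows that a scaling between libraries is part of the FPKM. The authors' own fold changes, p-values and pathway tables, and 72 further columns per sample, were not used. An FPKM of 0 stands for no read at this depth.

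The test was limma (3.58.1, R 4.3.3) with an intensity trend in its empirical Bayes step, run on log2(FPKM + 1) over genes with a mean of at least 0.5 FPKM in the libraries of a fit, with Benjamini-Hochberg adjustment over all of them. It used the 2 groups compared, or all 4 groups for an interaction, and a threshold of 0.05. The fold changes on this scale understate those of low genes. Single members were compared by two-sided exact permutation tests, whose smallest p is 0.00794 for 5 against 4 or 5 mice and 0.0286 for 4 against 4. Alternatives were a pseudocount of 0.1, no filter, the TPM scale, edgeR (4.0.16, quasi-likelihood) and DESeq2 (1.42.0) on recovered reads, each mouse left out, WT NCD mice 182 and 183 left out, 1 fit over 4 groups, and the mouse as a block between tissues. Scripts were tested on simulated data.

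The members and lists were chosen with earlier results of these data known. The members were always named, other metalloproteases from a group mean of 1 FPKM, and of the related lists the 3 largest changes called in a comparison. For likeness the 3 highest r were named. Mouse numbers in the labels pair visWAT and liver, and libraries with the same number were taken as from the same animal. Deviations from the group means of the 9 WT mice correlated between tissues by -0.0516 to 0.0596 over 14657 genes, with none over 0.1 and 2 mice closest to their own number. Correlations this close to 0 do not show the pairing, which rests on the labels. Of the gene identifiers, 56017 are in the GRCm39 annotation, and coordinates are those of the deposited table.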

Additional observations from a re-analysis of the deposited data

Results flagged for a closer look

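In 78 groups of 4 or 5 libraries, 1 per member, tissue, genotype and diet, 8 held a library that stood far from the others by Dixon's test, where 3.9 would be expected at 1 in 20. Of these, 4 were in WT NCD liver and 3 came from mouse 182. Liver *Mmp2* of that mouse was 6.30 FPKM with the next library at 0.887 FPKM, liver *Timp2* was 15.1 FPKM with the next at 6.03 FPKM, and liver *Timp1* was 1.20 FPKM with the next at 0.180 FPKM. The liver *Timp4* value of mouse 183, 0.00957 FPKM, rests on 1 read beside 3 libraries at 0.

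In WT HFD liver, mouse 161 was low in *Mmp2*, at 0.394 FPKM with the next library at 0.763 FPKM, and mouse 155 was high in *Mmp3*, at 0.178 FPKM with the next at 0.0310 FPKM. In visWAT, mouse 155 of the WT HFD group held 26.2 FPKM of *Timp1* with the next library at 15.4 FPKM, and mouse 156 of the Mlkl Adi-KO HFD group held 1.44 FPKM of *Mmp9* with the next at 0.533 FPKM.

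The diet response of 7 of the 9 members tested differed between visWAT and liver of WT mice by limma's test of the difference itself, against 40% of 14746 genes. On the log2 scale, visWAT minus liver, the differences were 2.71 for *Mmp2*, 1.94 for *Mmp14*, 2.67 for *Mmp3*, -1.68 for *Mmp9*, 0.78 for *Mmp19*, 2.39 for *Timp1* and 1.64 for *Timp2*. *Mmp3* and *Mmp9* reached the minimum level only through visWAT on HFD and on NCD, in that order, so their responses had to differ to be tested. *Timp1* reached it only through visWAT. The call of *Mmp19* was lost with the mouse as a block, in edgeR, in DESeq2 and on leaving out single mice. That of *Timp1* was lost in edgeR, in DESeq2 and at a pseudocount of 0.1.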

How the results depend on the processing

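Over all alternatives, 1427 of 1525 recomputed values of the members kept their direction and their side of the threshold, 36 lost the threshold, 14 gained it and 48 changed sign. The cause was not tested. With the mouse as a replicate block, which pairs visWAT and liver, *Mmp19* and *Timp1* on NCD and *Mmp19* in the diet response lost their calls (adjusted p of 0.0617, 0.0592 and 0.061), and no other call changed.

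The members called for diet in Mlkl Adi-KO liver numbered 1 to 2 on leaving out 1 mouse. On the TPM scale the log2 difference became 0.35 for *Timp3* and 0.14 for *Mmp28* (diet, WT visWAT), 0.28 for *Mmp19* and 0.40 for *Timp1* (genotype, NCD visWAT), -0.0182 for *Mmp2* (diet, Mlkl Adi-KO liver), -0.0250 for *Mmp19* (genotype, HFD liver), -0.43 for *Timp4* (interaction, visWAT), 0.33 for *Mmp14* (tissue, NCD) and 0.32 for *Timp3* (diet response between tissues). All of these but the comparisons within liver include the visWAT library of mouse 183, whose TPM are lowered by seminal vesicle RNA. In the comparisons with that library, the TPM median of all genes was 0.38 (diet, WT visWAT), 0.33 (genotype, NCD visWAT), -0.41 (interaction, visWAT), 0.55 (tissue, NCD) and 0.35 (diet response between tissues). At a pseudocount of 0.1 the log2 difference was 0.0835 for *Timp1* (genotype, NCD visWAT) and -0.0785 for *Mmp2* (diet, Mlkl Adi-KO liver). Without WT NCD mice 182 and 183 it was -0.0285 for *Mmp2*, 0.0574 for *Mmp19* and 0.62 for *Timp1* (genotype, NCD visWAT), 0.0711 for *Timp2* (diet, WT liver) and -0.0402 for *Timp3* (interaction, liver). With edgeR and DESeq2 it was -0.0514 and -0.0565 for *Timp3* (diet, WT liver) and 0.17 and 0.16 for *Timp1* (interaction, visWAT).

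Leaving out 1 mouse, values that changed sign ran from -0.28 to 0.20 for *Mmp19* and -0.27 to 0.40 for *Timp1* (genotype, NCD visWAT), from -0.0584 to 0.0851 for *Mmp19* (tissue, HFD), from -0.0467 to 0.0765 for *Mmp2* and -0.0145 to 0.21 for *Timp2* (diet, Mlkl Adi-KO liver), from -0.46 to 0.0660 for *Timp2* and -0.11 to 0.19 for *Timp3* (diet, WT liver), from -0.29 to 0.0364 for *Timp3* (diet, WT visWAT), from -0.30 to 0.0744 for *Timp3* (diet response between tissues), from -0.0394 to 0.26 for *Timp3* (interaction, liver) and from -0.23 to 0.59 for *Timp4* (interaction, visWAT).

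Over all genes, the calls moved by more than 1.5 times only in the genotype and interaction comparisons. For genotype in HFD visWAT limma called 3 genes, DESeq2 146, the TPM scale 6, 1 fit over 4 groups 9 and limma without mouse 153 called 16. For genotype in NCD visWAT the counts were 0, with 8 by DESeq2, 2 without the filter, 1 in 1 fit over 4 groups, 1 without mouse 182 and 3 without 182 and 183. For genotype in HFD liver they were 26, with 259 by DESeq2, 7 without the filter and 9 to 13 without mouse 151, 153, 154, 161, 162 or 164. For genotype in NCD liver they were 1, with 19 by DESeq2, 3 without the filter, 3 in 1 fit and 7 without mouse 182, alone or with 183. The interaction gave 0 in visWAT, with 19 by DESeq2, 4 without mouse 153 and 14 without mouse 165, and 2 in liver, with 58 by DESeq2, 1 by edgeR, 5 without mouse 165 and 1 without 182 and 183. Liver values of *Mmp3*, *Mmp9*, *Mmp13*, *Timp1* and *Timp4* rest on at most 22 reads per library, which limits the size of a difference that can be seen between livers.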

Other observations

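*Mmp7* (matrilysin), an MMP of glandular epithelia, was uneven between mice of 1 group. In visWAT it was listed at 0 in all 4 WT NCD libraries, had a median of 0.657 FPKM and a highest value of 32.9 FPKM in Mlkl Adi-KO NCD mice, and a median of 0.0465 FPKM and a highest value of 8.33 FPKM in WT HFD mice. In WT NCD liver its median was 0.194 FPKM and its highest value 7.14 FPKM.

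*Mmp27*, named after its values were seen, had a mean of 0.154 ± 0.0871 FPKM in WT NCD and 0.792 ± 0.113 FPKM in WT HFD visWAT, and reached the minimum level for testing only through the HFD libraries. *Mmp8* and *Mmp10*, likewise named after their values were seen, were detected with 4 to 8 and 4 to 11 reads in the WT HFD libraries of visWAT and with at most 1 read in those of WT NCD.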
